A study of Homo sapiens with 6 samples.

Results

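The carnitine shuttle moves fatty acids into mitochondria, and 10 of its genes were followed here across 6 RNA sequencing libraries of human cardiomyocytes. The genes were taken by symbol from the deposited count tables, which list 38557 genes. They are the carnitine acyltransferases CPT1A, CPT1B, CPT1C, CPT2, CRAT and CROT, the carriers SLC25A20 and SLC22A5, and MLYCD and ACACB, which set the level of malonyl-CoA. All 10 were present in each table and all 10 passed the filter on low counts. The cells were cardiomyocytes derived from WTC11, an established wild-type human induced pluripotent stem cell line, and RNA was read with a stranded mRNA library kit. In 3 libraries the cells had been kept in RPMI plus B27, a basal medium with a serum-free supplement, and the other 3 were kept in DMEM plus fatty acids. The labels number the biological replicates 1 to 3 in both media and do not say whether these came from separate differentiations, so p-values measure the spread between these samples. WTC11 is a single line, and neither the amounts in the media nor the time spent in them is given.

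Long-chain fatty acids cross the inner mitochondrial membrane only as carnitine esters. CPT1 in the outer membrane makes the acylcarnitine, SLC25A20 exchanges it across the inner membrane for free carnitine, and CPT2 on the inner membrane turns it back into acyl-CoA for beta-oxidation. Malonyl-CoA inhibits CPT1, which makes its synthesis by ACACB and its removal by MLYCD the control of the pathway in heart. CPT1A is the isoform of liver and of the fetal heart, CPT1B is the main isoform of adult heart and skeletal muscle, and CPT1C is mostly neuronal and has little acyltransferase activity.

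The libraries held 23232324 to 31035389 gene counts, and 3 counts, the limit that a count of 0 allows, corresponded to 0.0967 to 0.129 CPM (gene counts scaled to a common library total). Without molecular identifiers, such limits and the intervals below cover counting error only. Levels are given as CPM scaled by edgeR's TMM factors, and a gene was called when its adjusted p was under 0.05 in edgeR's quasi-likelihood test (Benjamini-Hochberg over 16107 tested genes). Markers of cardiomyocytes were abundant in every library, with 12 of 12 tested and a summed level of 30071 to 38046 CPM in RPMI plus B27 against 24331 to 34324 CPM in DMEM plus fatty acids. Fibroblast and stromal markers summed to 4317 to 8290 CPM in RPMI plus B27 against 754 to 1951 CPM in DMEM plus fatty acids, with 10 of 11 tested markers lower and 5 called as lower. Of all tested genes, 49.0% had a fold change below 0 and 1.07% were called as lower. Smooth muscle markers summed to 1555 to 1949 CPM in RPMI plus B27 against 311.2 to 1125 CPM in DMEM plus fatty acids, and epicardial markers to 1972 to 2394 CPM against 882.3 to 1097 CPM. In each of these 2 lists 5 of 5 tested markers were lower and 1 was called, and neither sum overlapped between media. In turn, 0 markers were called among those of endothelium, skeletal muscle and pluripotent cells (3, 1 and 2 tested). Endothelial markers summed to 37.2 to 240.7 CPM in RPMI plus B27 against 115.1 to 463.6 CPM in DMEM plus fatty acids. That sum was higher in DMEM plus fatty acids at each replicate number, although 2 of the 3 tested markers were lower. The skeletal muscle factors MYOD1, MYF5 and PAX7 had 0 counts in all 6 libraries. In bulk RNA, fewer cells of a type and less RNA per cell cannot be told apart.

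The 3 CPT1 isoforms are separate genes, and the stretch of coding sequence below shows how far reads can tell them apart. It is centred on the longest run of bases that CPT1A and CPT1B share, and is taken from the principal transcripts of GENCODE 29 on GRCh38 and written 5′ to 3′. Capitals in CPT1A mark that run of 25 bases, and capitals in CPT1B and CPT1C mark bases that differ from CPT1A. The stretch covers coding bases 695 to 814 of CPT1A (chr11:68794869-68796932, minus strand), 701 to 820 of CPT1B (chr22:50574558-50576111, minus strand) and 695 to 814 of CPT1C (chr19:49704711-49705049, plus strand), and each crosses 1 intron.
CPT1A: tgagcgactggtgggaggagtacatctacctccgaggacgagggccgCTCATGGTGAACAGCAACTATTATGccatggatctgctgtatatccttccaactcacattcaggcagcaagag
CPT1B: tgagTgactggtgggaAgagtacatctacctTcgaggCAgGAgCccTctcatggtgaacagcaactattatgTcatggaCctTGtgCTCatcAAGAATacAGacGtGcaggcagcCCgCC
CPT1C: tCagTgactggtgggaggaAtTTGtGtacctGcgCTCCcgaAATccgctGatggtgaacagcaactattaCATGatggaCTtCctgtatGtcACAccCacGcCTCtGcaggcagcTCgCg
Over these 120 bases CPT1B differed from CPT1A at 30 and CPT1C at 36. Over the aligned coding sequences CPT1A and CPT1B were 68.7% identical, CPT1A and CPT1C 65.5%, and CPT1B and CPT1C 67.0%. No run of identical bases between 2 of the 3 principal transcripts was longer than 25.

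CPT1B shares its bases with another gene, and its counts cannot be read as its level. CHKB-CPT1B is an annotated read-through gene that joins CHKB (choline kinase beta) to CPT1B, with both on the minus strand of chromosome 22. In GENCODE 29 all but 153 of the 2662 bases of the principal CPT1B transcript lie in exons of CHKB-CPT1B, including every one of its 2316 coding bases and all 120 printed above. CHKB-CPT1B itself had 0 counts in all 6 libraries, and CHKB, whose 1185 coding bases all lie in read-through exons, had 2 to 13. Reads that overlapped more than one gene were set aside in the deposited tables and made up 3.90% to 4.15% of all counted rows. CPT1B had 21, 15 and 10 counts in RPMI plus B27 against 43, 42 and 48 in DMEM plus fatty acids (replicates 1 to 3 here and throughout). The annotation used for counting is not given in the sources used here, so how many CPT1B reads were set aside was not tested. The other 9 genes share at most 1.86% of their exonic bases with a gene on their own strand in GENCODE 29. That value belongs to MLYCD, which shares 301 of its 16161 exonic bases with AC009119.2. All 301 are coding bases of MLYCD and make up 20.4% of its 1479 coding bases. How many MLYCD reads were set aside was not tested. On the opposite strand CPT2 overlaps other genes over 12.0% of its exonic bases and the other members over less than that, and the strand setting of the count is not stated.

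Compared per length, the inner part of the shuttle was more abundant than CPT1A in RPMI plus B27. CRAT (carnitine acetyltransferase) had the highest level of the 10, 39.1 ± 0.88 CPM per kb of principal transcript in RPMI plus B27 against 48.7 ± 2.13 in DMEM plus fatty acids (mean ± SD, n = 3 each). SLC25A20 followed with 16.3 ± 2.92 and 25.4 ± 9.63 CPM per kb, and CPT2 with 16.2 ± 2.21 and 19.8 ± 5.36. In RPMI plus B27, SLC25A20, CPT2, CPT1C (11.9 ± 1.80) and ACACB (11.0 ± 1.32) each overlapped their neighbour in this order, and CPT1A came sixth at 5.60 ± 0.92 CPM per kb, below all 3 libraries of ACACB. In DMEM plus fatty acids CPT1A ranked above CPT1C and ACACB at 18.9 ± 6.32 CPM per kb, and its 3 libraries overlapped those of CPT2 above it and of CPT1C below it. MLYCD, CROT and SLC22A5 stayed between 2.10 and 6.11 CPM per kb in every library. The place of MLYCD rests on its principal transcript of 13038 bases. Without division by length, MLYCD had 47.6 ± 5.47 CPM and CPT1A 29.3 ± 4.82 CPM in RPMI plus B27. In DMEM plus fatty acids these values were 73.9 ± 8.02 and 98.7 ± 33.1 CPM. CPT1B was last in both media, at 0.226 ± 0.080 and 0.586 ± 0.095 CPM per kb, a level that the read-through gene makes uncertain.

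**Figure D1:**
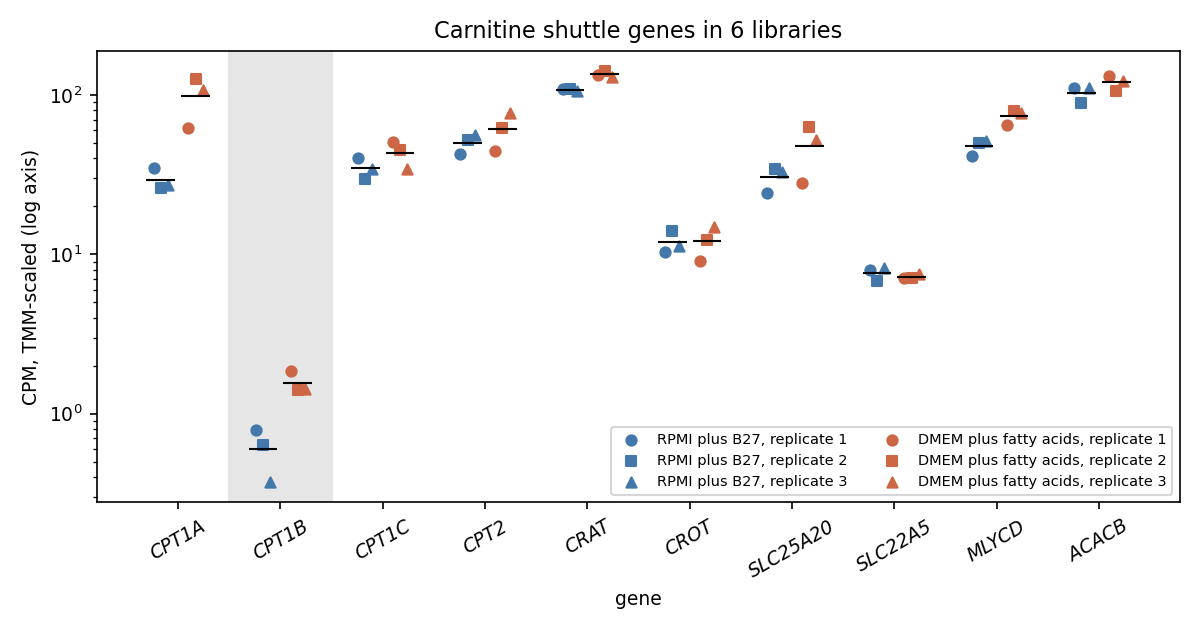
CPM (TMM-scaled, log axis) of the 10 carnitine shuttle genes in each library, with the marker shape giving the replicate number and a black line the mean of each medium. The 3 DMEM plus fatty acids points of CPT1A lie between 62.3 and 126.8 CPM, above its 3 RPMI plus B27 points at 26.0 to 34.9 CPM, while the points of CROT and SLC22A5 overlap. The grey band marks CPT1B, a gene that shares exonic bases with a read-through gene.

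Between media, CPT1A rose and the other 9 genes did not pass the test. The 1 call among 10 genes stands beside 1.36% of all tested genes called in either direction and 0.292% called as higher in DMEM plus fatty acids. Under a block for the replicate number, MLYCD passed as well, beside 4.78% of all tested genes (1.36% as higher), and DESeq2 called the same 2 genes beside 7.53%. The fold change was above 0 for 9 of the 10, against 51.0% of all tested genes. The median log2 fold change was 0.32 for the 10 and 0.01 for all tested genes. The 10 genes and the pathway lists below were chosen with earlier results of these data known. Such comparisons with all tested genes are thus a description. The groups did not overlap for CPT1A, CPT1B, CRAT and MLYCD, all higher in DMEM plus fatty acids, and 12.8% of all tested genes were separated in that direction. The same 4 genes had an unadjusted p under 0.05, as did 7.7% of all tested genes in that direction.

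CPT1A (ENSG00000110090.12, chromosome 11, 68754620 to 68844410, minus strand) catalyses the committed step of fatty acid entry. It stood at 34.9, 26.0 and 27.1 CPM in RPMI plus B27 against 62.3, 126.8 and 107.1 CPM in DMEM plus fatty acids. Every DMEM plus fatty acids library was above every RPMI plus B27 library, and replicate 1 was the lowest of its medium. The log2 fold change was 1.75 ± 0.27 (SE), or 3.37-fold, with an adjusted p of 0.0402 by edgeR and 0.0311 in the blocked fit. The call was lost, with the log2 fold change between 1.53 and 1.89, when any library other than DMEM plus fatty acids replicate 1 was left out (adjusted p 0.0801 to 0.123). Over all 12 alternatives the adjusted p ran from 3.85e-07 to 0.123.

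Beside this rise, the summed levels of fibroblast and stromal, smooth muscle and epicardial markers were lower in DMEM plus fatty acids, with no overlap between media, as given above. Markers of liver and endoderm, counted here because CPT1A is the liver isoform, had 7 of 7 tested members lower in DMEM plus fatty acids with 0 called. They summed to 15.6 to 320.8 CPM in RPMI plus B27 against 7.79 to 52.3 CPM in DMEM plus fatty acids. The part of any of these marker lists in the CPT1A difference was not tested.

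CPT1C (ENSG00000169169.14, chromosome 19, 49690898 to 49713731, plus strand) was of the same order as CPT1A in RPMI plus B27. It had 40.1, 29.6 and 34.5 CPM in RPMI plus B27 against 50.7, 44.9 and 34.4 CPM in DMEM plus fatty acids, and the media overlapped. Its log2 fold change was 0.32 ± 0.18 (adjusted p 0.414 by edgeR), and 0.19 without DMEM plus fatty acids replicate 1. Neuronal markers had 5 of 5 tested members lower in DMEM plus fatty acids with 0 called, and summed to 38.8 to 54.1 CPM in RPMI plus B27 against 25.0 to 38.5 CPM in DMEM plus fatty acids. The part of neuronal cells in the CPT1C level was not tested.

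Within each library, CPT1A held a larger part of the CPT1 counts in DMEM plus fatty acids, and CPT1C a smaller part. CPT1A made up 46.0%, 46.2% and 43.8% of the CPT1 counts in RPMI plus B27 against 54.2%, 73.2% and 75.0% in DMEM plus fatty acids. The 95% Wilson intervals ran from 41.4% to 48.9% in RPMI plus B27 against 52.3% to 76.2% in DMEM plus fatty acids, and did not overlap between media. The mean share went from 45.3% ± 1.36 to 67.5% ± 11.5 (SD, n = 3 each), a difference of 22.1 percentage points (exact two-sided permutation test, p = 0.1, the smallest that 3 against 3 libraries allow). Over the 5 exact tests of shares and ratios given here, the Benjamini-Hochberg adjusted p was 0.167. CPT1C made up 53.7% ± 1.64 in RPMI plus B27 against 31.4% ± 11.1 in DMEM plus fatty acids (exact permutation p = 0.1, adjusted 0.167). CPT1B held a mean of 0.927% and 1.14% of these counts. The CPT1C share is thus close to the mirror of the CPT1A share and is not a separate result. The mean level of CPT1C itself was not lower, at 34.7 CPM in RPMI plus B27 against 43.3 CPM in DMEM plus fatty acids. In RPMI plus B27, CPT1A had 0.787 to 0.878 counts for each count of CPT1C, and in DMEM plus fatty acids 1.23, 2.82 and 3.12.

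The shares depended on length, while the differences between media in the CPT1A and CPT1C shares moved by less than the spread of the replicates. Per base of principal transcript, CPT1A held 31.5% ± 1.17 in RPMI plus B27 against 54.1% ± 12.6 in DMEM plus fatty acids, since the CPT1A transcript of 5232 bases is longer than that of CPT1C (2910 bases). CPT1B made up 0.927% ± 0.29 and 1.14% ± 0.42 of the CPT1 counts, and its share overlapped between media (exact permutation p = 0.6, adjusted 0.6). Divided by the 1380 exonic bases that it does not share, CPT1B reached 4.01% ± 1.21 and 4.99% ± 1.69, and the difference between media in its share went from 0.213 to 0.984 percentage points. With reads in its shared bases possibly set aside, none of these shares can be read as the true part of CPT1B.

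**Figure D2:**
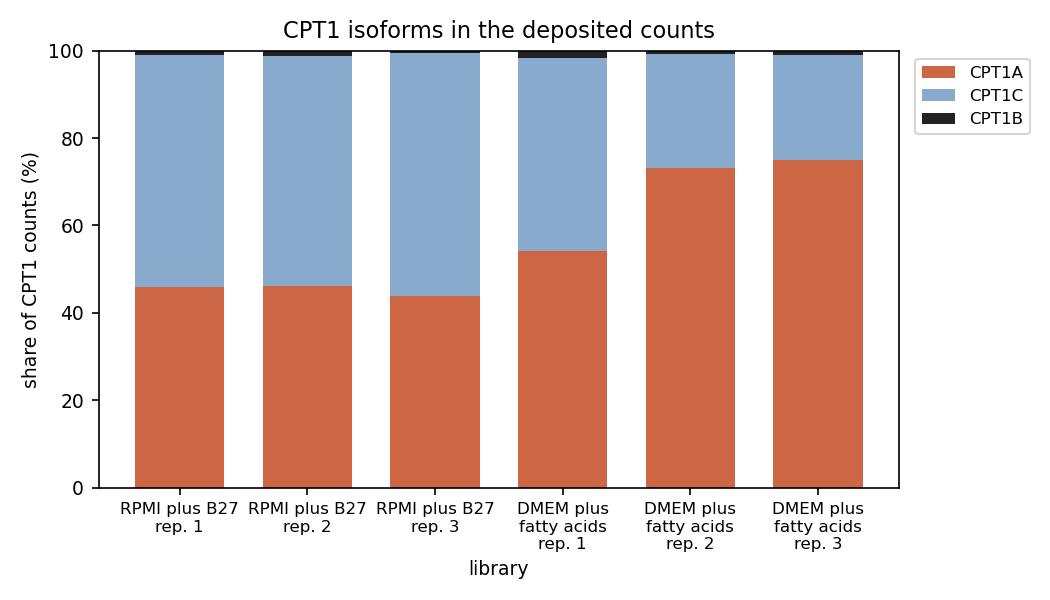
Share of CPT1A, CPT1C and CPT1B in the CPT1 counts of each library (percent of the 3 genes' raw counts). CPT1A holds 43.8% to 46.2% in the 3 RPMI plus B27 libraries and 54.2% to 75.0% in the 3 DMEM plus fatty acids libraries, and the thin CPT1B layer holds counts of a gene whose coding bases all lie in exons of a read-through gene.

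CPT1B (ENSG00000205560.12, chromosome 22, 50568861 to 50578465, minus strand) had the second largest fold change of the 10. Its level was 0.791, 0.638 and 0.373 CPM in RPMI plus B27 against 1.85, 1.40 and 1.42 CPM in DMEM plus fatty acids. The media did not overlap, but the log2 fold change of 1.37 ± 0.37 did not pass (adjusted p 0.124 by edgeR, 0.0735 with the block). These values describe the few reads that the count assigned to CPT1B alone.

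The steps after CPT1 were called in neither fit. SLC25A20 (ENSG00000178537.9, chromosome 3, 48856931 to 48898993, minus strand), the carnitine-acylcarnitine translocase, had 24.3, 34.5 and 33.0 CPM in RPMI plus B27 against 27.8, 63.3 and 51.8 CPM in DMEM plus fatty acids. Replicates 2 and 3 in DMEM plus fatty acids were above every RPMI plus B27 library, and replicate 1 lay among them. The log2 fold change was 0.64 ± 0.30 (adjusted p 0.317 by edgeR, 0.0938 with the block), and ran from 0.38 without DMEM plus fatty acids replicate 2 to 0.91 without replicate 1 of that medium. CPT2 (ENSG00000157184.6, chromosome 1, 53196429 to 53214197, plus strand) had 42.5, 52.1 and 55.7 CPM in RPMI plus B27 against 44.3, 61.9 and 77.4 CPM in DMEM plus fatty acids. Again DMEM plus fatty acids replicate 1 lay within the RPMI plus B27 range, and the log2 fold change was 0.29 ± 0.21 (adjusted p 0.528). It was 0.47 without that library, 0.09 without DMEM plus fatty acids replicate 3 and 0.18 without RPMI plus B27 replicate 1.

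The ratio of CPT1A to CPT2 within a library was higher in all 3 DMEM plus fatty acids libraries than in any of RPMI plus B27. CPT1A had 0.820, 0.499 and 0.486 counts for each CPT2 count in RPMI plus B27 against 1.41, 2.05 and 1.38 in DMEM plus fatty acids. The log2 ratio was -0.78 ± 0.42 and 0.66 ± 0.32 (SD, n = 3 each), a difference of 1.44 with no overlap between media (exact two-sided permutation p = 0.1, adjusted 0.167).

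The acyltransferases for shorter chains were called in neither fit. CRAT (ENSG00000095321.16, chromosome 9, 129094810 to 129111189, minus strand) buffers acetyl-CoA by exporting acetyl groups as acetylcarnitine. It had 109.2, 109.6 and 105.2 CPM in RPMI plus B27 against 133.2, 140.8 and 129.2 CPM in DMEM plus fatty acids. The media did not overlap and the replicates were close, but the log2 fold change of 0.32 ± 0.10 did not pass (adjusted p 0.169 by edgeR, 0.119 with the block). CROT (ENSG00000005469.11, chromosome 7, 87345681 to 87399795, plus strand), which esterifies medium-chain products of peroxisomes, had 10.3, 14.1 and 11.2 CPM against 9.08, 12.3 and 14.8 CPM. Its media overlapped, with a log2 fold change of 0.02 ± 0.23 (adjusted p 0.966), whose sign turned when RPMI plus B27 replicate 1 or 3 or DMEM plus fatty acids replicate 3 was left out.

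SLC22A5 (ENSG00000197375.12, chromosome 5, 132369752 to 132395614, plus strand) is OCTN2, the carnitine importer of the plasma membrane, whose loss causes primary carnitine deficiency. It had 7.91, 6.81 and 8.20 CPM in RPMI plus B27 against 7.06, 7.09 and 7.47 CPM in DMEM plus fatty acids. The media overlapped, and SLC22A5 had the only fold change below 0 among the 10, a log2 value of -0.08 ± 0.18 (adjusted p 0.847) that became 0.03 under scaling by total counts. Other genes of carnitine synthesis and transport gave 0 calls among 5 tested of 7, with 0 at an unadjusted p under 0.05 (17.7% of all tested genes in either direction) and a median log2 fold change of 0.18. The smallest p values were those of SLC22A4 (an organic cation transporter, 0.45 ± 0.28), SLC16A9 (a carnitine efflux transporter, 1.04 ± 0.69) and ALDH9A1 (an aldehyde dehydrogenase of carnitine synthesis, 0.18 ± 0.16). BBOX1, the last enzyme of carnitine synthesis, and SLC22A16 did not pass the filter on low counts.

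Of the pair that controls malonyl-CoA, MLYCD passed in the blocked fit and by DESeq2 but not in the fit without the block, and ACACB passed in neither edgeR fit. MLYCD (ENSG00000103150.5, chromosome 16, 83899126 to 83927026, plus strand), malonyl-CoA decarboxylase, had 41.4, 49.8 and 51.7 CPM in RPMI plus B27 against 64.7, 79.7 and 77.2 CPM in DMEM plus fatty acids. All 3 DMEM plus fatty acids libraries were above all 3 RPMI plus B27 libraries. The log2 fold change was 0.63 ± 0.14, with an adjusted p of 0.0808 by edgeR and 0.0258 in the blocked fit, and the call with the block was lost without the replicate 2 pair. ACACB (ENSG00000076555.15, chromosome 12, 109116595 to 109268226, plus strand), the acetyl-CoA carboxylase that sits at the outer mitochondrial membrane, had 110.2, 88.9 and 110.3 CPM against 131.1, 105.9 and 122.5 CPM. Its media overlapped, and the log2 fold change was 0.22 ± 0.14 (adjusted p 0.457), or 0.12 without RPMI plus B27 replicate 2 and 0.14 without DMEM plus fatty acids replicate 1.

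The log2 ratio of ACACB to MLYCD counts was 1.11 ± 0.29 in RPMI plus B27 against 0.70 ± 0.31 in DMEM plus fatty acids (mean ± SD, n = 3 each). By library the ratio itself was 2.66, 1.78 and 2.13 against 2.03, 1.33 and 1.59, so the media overlapped. The difference of -0.42 had an exact two-sided permutation p of 0.2 (adjusted 0.25), where 3 against 3 libraries allow no less than 0.1. The log2 ratios were 1.41, 0.84 and 1.09 in RPMI plus B27 against 1.02, 0.41 and 0.67 in DMEM plus fatty acids. Within replicate numbers the ratio was thus lower in DMEM plus fatty acids in all 3 pairs, where the exact sign-flip test cannot give less than 0.25.

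Other genes of malonyl-CoA supply and its control by AMP-activated kinase (AMPK) gave 0 calls among 13 tested of 15, with 3 at an unadjusted p under 0.05 (beside the same 17.7%) and a median log2 fold change of 0.05. Those 3 were FASN (fatty acid synthase, 1.30 ± 0.49, adjusted p 0.233), PRKAA1 (the AMPK alpha 1 subunit, 0.31 ± 0.12, 0.235) and ACACA (the cytosolic acetyl-CoA carboxylase, 0.62 ± 0.26, 0.277). FASN had 246.0, 157.6 and 218.5 CPM in RPMI plus B27 against 949.6, 345.4 and 235.1 CPM in DMEM plus fatty acids. ACACA had 77.4, 56.5 and 71.3 CPM against 149.2, 91.9 and 74.3 CPM. For both genes DMEM plus fatty acids replicate 1 was the highest of all 6 libraries. Among the 10 shuttle genes, that library was lowest of its medium for 6, CPT1A, SLC25A20, CPT2, MLYCD, CROT and SLC22A5. It was the highest of its medium for 3, CPT1B, CPT1C and ACACB. Without that library the log2 fold change of FASN was 0.48 and that of ACACA 0.28.

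**Figure D3:**
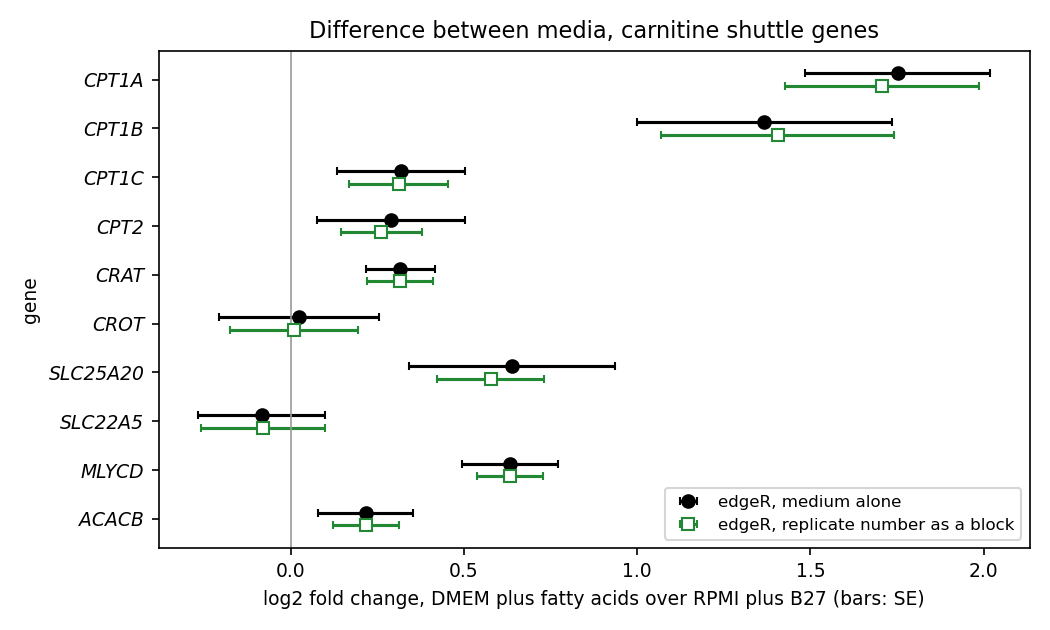
Log2 fold change of each gene, where values above 0 are higher in DMEM plus fatty acids, by edgeR without (filled) and with (open) the replicate number as a block; bars are SE. CPT1A lies farthest from 0 at 1.75 and 1.71, MLYCD keeps 0.63 in both fits with a smaller SE under the block (0.10 against 0.14), and CROT and SLC22A5 lie within 1 SE of 0.

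Within replicate numbers, which were treated as pairing the libraries, 7 of the 10 genes were higher in DMEM plus fatty acids in all 3 pairs, as were 25.8% of all tested genes. MLYCD had log2 differences of 0.64, 0.68 and 0.58, CRAT had 0.29, 0.36 and 0.30, and ACACB had 0.25, 0.25 and 0.15, so the pairs were close to each other for these 3 genes. CPT1A was not even, with 0.84 in pair 1 and 2.28 and 1.98 in pairs 2 and 3. SLC25A20 had 0.19, 0.87 and 0.65 in the same order, and CPT2 had 0.06, 0.25 and 0.47. Pair 1 thus had the smallest difference for each of these 3 genes. When pair 1 was left out of the fit with the block, CPT1A, CPT1B, SLC25A20 and MLYCD passed, 4 of the 10 genes. Of the 16282 genes tested there, 11.7% passed. This alternative was added after seeing the data, and it drops the pair with the smallest differences for CPT1A, SLC25A20 and CPT2. Leaving out a pair, whichever it was, gave 1 to 4 calls among the 10.

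**Figure D4:**
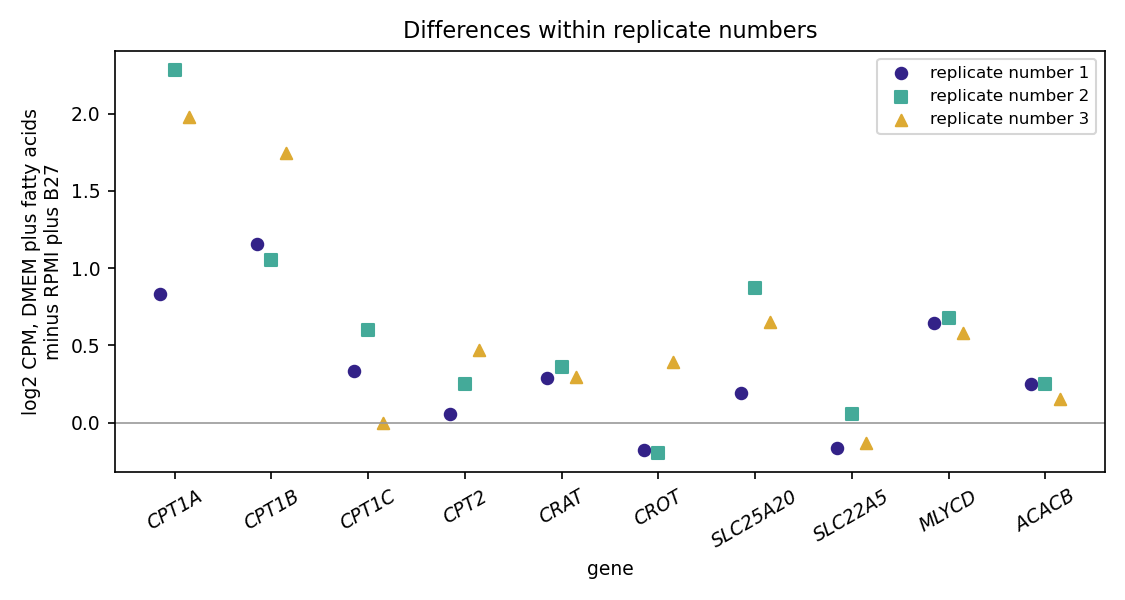
Difference in log2 CPM between DMEM plus fatty acids and RPMI plus B27 within each replicate number. The points of MLYCD lie within 0.58 to 0.68, those of CPT1A spread from 0.84 to 2.28 with replicate number 1 lowest, and CROT and SLC22A5 have points on both sides of 0.

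In the 7 chosen lists of pathways around the shuttle, 1 gene was called by the same test. The counts below stand beside 1.36% of all tested genes called, 17.7% at an unadjusted p under 0.05 in either direction and 51.0% with a fold change above 0. Genes of acyl-CoA supply cover the uptake and activation of fatty acids and the binding of fatty acids and acyl-CoA. They had 0 calls among 9 tested of 11, 1 at an unadjusted p under 0.05 and a median log2 fold change of 0.30. That median was 0.01 without DMEM plus fatty acids replicate 1. The smallest p values were those of the acyl-CoA synthetases ACSL1 (0.54 ± 0.21) and ACSL3 (0.46 ± 0.23) and the transport protein SLC27A4 (0.53 ± 0.25). Without DMEM plus fatty acids replicate 1, ACSL1 had 0.27 and ACSL3 had 0.14, and without RPMI plus B27 replicate 1 SLC27A4 had 0.29. ACSF2, an acyl-CoA synthetase outside the lists that was named after its value was seen, was called by the same test, with a log2 fold change of 0.73 ± 0.11 (adjusted p 0.0402 by edgeR). Mitochondrial beta-oxidation had 1 call among 16 tested, 15 of 16 fold changes above 0, 7 at an unadjusted p under 0.05 and a median of 0.40. The call was ETFDH, the dehydrogenase that passes electrons from beta-oxidation to ubiquinone, at 48.0, 49.9 and 48.7 CPM in RPMI plus B27 against 86.7, 105.4 and 105.2 CPM in DMEM plus fatty acids. Its log2 fold change was 1.02 ± 0.12 (adjusted p 0.0252 by edgeR), and it kept its call in the fit without RPMI plus B27 replicate 3 and lost it in the other 5 fits that left out 1 library (adjusted p 0.0543 to 0.0965).

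Peroxisomal beta-oxidation, which makes substrate for CROT and CRAT, had 0 calls among 13 tested of 14, 6 at an unadjusted p under 0.05 and a median of 0.15. ACAA1 (peroxisomal thiolase) had 47.9, 70.4 and 70.1 CPM against 105.3, 112.2 and 98.2 CPM, a log2 fold change of 0.74 ± 0.17 that passed with the block (adjusted p 0.0436) and not without it (0.0837). HSD17B4 (the peroxisomal multifunctional enzyme) had 0.32 ± 0.10, and ACOX3 (a peroxisomal acyl-CoA oxidase) had -0.72 ± 0.25 with no overlap between media.

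Nuclear regulators that act on shuttle genes, the PPAR, PGC-1 and ERR group, had 0 calls among 13 tested, 2 at an unadjusted p under 0.05 and a median of 0.11. ESRRG (estrogen-related receptor gamma) passed with the block (0.72 ± 0.16, adjusted p 0.0875 without and 0.0255 with it), from 75.9, 93.3 and 73.7 CPM to 138.3, 153.6 and 108.4 CPM. RXRG and RXRA, the retinoid X receptors gamma and alpha, had log2 fold changes of -1.0 ± 0.35 and 0.33 ± 0.15 and passed in neither fit. PPAR-responsive genes other than CPT1A had 0 calls among 9 tested of 13, 2 at an unadjusted p under 0.05 and a median of 0.29. PDK4 (pyruvate dehydrogenase kinase 4) had 6.37, 4.38 and 2.57 CPM in RPMI plus B27 against 3.75, 15.6 and 13.1 CPM in DMEM plus fatty acids. As with CPT1A, replicates 2 and 3 in DMEM plus fatty acids were higher than replicate 1, which here lay within the RPMI plus B27 range (1.29 ± 0.55, adjusted p 0.279). ACOT1 (an acyl-CoA thioesterase) had 0.41 ± 0.17 and UCP3 (uncoupling protein 3) -0.60 ± 0.35.

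Among 10272 other tested genes whose mean reached 10 CPM in either medium, those whose log2 CPM followed CPT1A most closely over the 6 libraries were TOX, DNMT3A, TMEM186, CDC42EP4 and DEPDC5, with Pearson coefficients of 0.977 to 0.985. The 3 most opposed were ZNF131, ND4L and CHST3, at -0.994 to -0.987. These coefficients are a description over 6 points that share 2 media and 3 replicate numbers. Of the 8 genes, CDC42EP4 was called (0.88 ± 0.15, adjusted p 0.0453), a call that was lost when any 1 library was left out (adjusted p 0.0817 to 0.156). DNMT3A passed with the block and not without it (0.55 ± 0.11, adjusted p 0.0593 without the block, 0.0431 with it).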

How the data were processed

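Stranded mRNA libraries of 6 samples were sequenced, 3 per medium, and grouped by sample title. Each library had 1 deposited table of raw, unscaled counts by gene symbol, made with STAR and HTSeq on hg38, per the submitters' processing notes, with versions and settings not given in the sources used here. Rows that name no gene held 12.8% to 15.6% of all counted rows and were left out. The test was that of edgeR 4.0.16 under R 4.3.3 (filterByExpr at its defaults, minimum count 10, TMM, quasi-likelihood test of medium over all 6 libraries, Benjamini-Hochberg over 16107 genes). The biological coefficient of variation was 25.6%. SE are those implied by the F statistic. Shares and ratios of raw counts (pseudocount 0.5 for log2 ratios) were compared by exact permutation tests.

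Deviations from the mean of each medium correlated at 0.31, 0.43 and 0.37 across genes between same-numbered libraries and at -0.24 to -0.14 for others, so the numbers were treated as pairing the libraries. Alternatives included DESeq2 1.42.0. Gene positions and overlaps come from GENCODE 29, and sequences from its transcripts, read with Biopython 1.88.

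The 10 genes and the lists were chosen with earlier results of these data known. Named genes were the 10, CHKB and CHKB-CPT1B, the called genes (up to 4) or the 3 smallest p values of each list, and the 5 genes most and 3 least like CPT1A. ACSF2 was named outside this rule.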

Additional observations from a re-analysis of the deposited data

How the results depend on the processing

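Over all genes, 219 were called, 770 with the replicate block, 1212 by DESeq2's Wald test, 539 without a low-count filter, 119 with at least 10 counts in every library and 3 to 131 when 1 library was left out. Among the 10 shuttle genes, 1 was called (CPT1A), 2 with the replicate block and by DESeq2 (CPT1A and MLYCD), and 0 to 1 without 1 library. Leaving out a replicate pair in the fit with the block, an alternative chosen after seeing the data, gave 1 to 4. In the 7 lists 1 gene was called, 3 with the block, 5 by DESeq2, 2 without a filter and 0 to 1 without 1 library. Fits without 1 library have fewer residual degrees of freedom.

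The difference in the CPT1B share, 0.213 percentage points, was -0.0235 without DMEM plus fatty acids replicate 1 and 0.0504 to 0.377 without another library, and the cause was not tested. The other shares and both ratios kept their sign in every alternative, with the CPT1A share difference at 18.4 to 28.8 percentage points without 1 library. CROT (0.02) ran from -0.15 to 0.19 on the log2 scale when 1 library was left out, and was below 0 without RPMI plus B27 replicate 1 (-0.07) or 3 (-0.01) or DMEM plus fatty acids replicate 3 (-0.15). SLC22A5 (-0.08) had 0.027 under total counts. The cause was not tested. That scaling moved the median of all genes from 0.01 to 0.12. Paired tests of shares (exact sign-flip) give the same mean differences by construction. Their p was 0.25, the smallest possible, for CPT1A and CPT1C, and 0.5 for CPT1B. Among the named genes tested, the block changed the calls of MLYCD, ACAA1, ESRRG and DNMT3A, given in the results, and no other. When 1 library was left out, list medians moved by over 1.5 times for carnitine supply (0.11 to 0.30), malonyl-CoA supply (0.01 to 0.10), acyl-CoA supply (0.01 to 0.48), peroxisomal beta-oxidation (0.10 to 0.26), nuclear regulators (0.04 to 0.30) and PPAR-responsive genes (0.20 to 0.45), as did the log2 fold changes of SLC22A5 (-0.16 to -0.03), SLC16A9 (0.56 to 1.61), ALDH9A1 (0.07 to 0.30), RXRA (0.22 to 0.44) and UCP3 (-0.77 to -0.29) and the log2 ratio of ACACB to MLYCD (-0.58 to -0.27). Counts of 10 to 48 limit CPT1B.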
